A study of Mus musculus with 3 samples.

Results

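Microglia that carry transcripts of major histocompatibility complex (MHC) class II genes were a small population, 168 of the 13312 microglia and of the 14070 cells kept in all. The cells come from whole brains of 8-week-old mice on a C57BL/6 background, profiled with a droplet 3′ kit that counts each captured transcript once as a unique molecular identifier (UMI). There was 1 library for each of 3 genotypes. hCD33M mice express the long isoform of human CD33, a sialic acid-binding receptor of myeloid cells, and hCD33m mice express the short isoform. By the study's methods both transgenes sit in the Rosa26 locus behind a floxed stop, Cre from the Cx3cr1 locus, which is active in microglia and other mononuclear phagocytes, removes that stop, and the hCD33m line descends from 1 embryonic stem cell clone. Control mice are labelled wild type. By the study's methods, wild-type mice of some other assays carry Cx3cr1-Cre without a transgene. For the libraries analysed here, the methods do not say whether Control mice carry Cre. The hCD33M and Control libraries are labelled male and the hCD33m library female, so that sex, genotype and library cannot be told apart for hCD33m. Cells of a genotype were pooled, kept cold with the inhibitors actinomycin D, triptolide and anisomycin, and sorted on CD11b, low CD45 and Cx3cr1. The count tables list mouse genes, and the level of the human transgenes was not analysed here.

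A cell was taken as microglia when P2ry12 and Tmem119, receptors and surface proteins of resting microglia, made up at least 0.15% of its UMIs and when Mrc1, Pf4, Ms4a7 and F13a1, genes of the macrophages at the borders of the brain, together had under 5 UMIs. It was selected as an MHC class II microglion when Cd74, H2-Aa, H2-Ab1 and H2-Eb1 together had at least 4 UMIs. These 10 genes therefore chose the cells, and their levels are given below as a description with no test. The rule took 66 of 4791 microglia in hCD33M, 49 of 5307 in hCD33m and 53 of 3214 in Control. For comparison, up to 4 microglia with 0 UMIs of the 4 genes were taken from the same library for each cell, within 10% of its total UMIs, which gave 254, 196 and 192 depth-matched microglia in hCD33M, hCD33m and Control. Median depth was 7200.5, 7085 and 7682 UMIs in the MHC class II microglia of hCD33M, hCD33m and Control, against 7086, 7078 and 7022.5 UMIs in the depth-matched microglia.

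MHC class II proteins present peptides from ingested material to CD4 T cells. H2-Aa and H2-Ab1 encode the α and β chains of I-A, H2-Eb1 encodes the β chain of I-E, and Cd74 encodes the invariant chain that guards the groove until the loading compartment is reached, where H2-DM exchanges the leftover invariant chain peptide for an antigen peptide and H2-O restrains H2-DM. In C57BL/6 mice the I-E α chain is not made, so that I-A is the class II molecule at the surface. The genes are switched on together by Ciita, which binds no DNA itself and acts through the RFX, CREB and NF-Y factors that sit on the X and Y boxes of the promoters. Resting microglia of the healthy adult brain show little MHC class II, while border macrophages and dendritic cells carry it constitutively.

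The class II promoters that RefSeq gives (GRCm38.p6, 250 bases before to 50 after the start) are shown for a pair of the 4 genes that chose the cells and for a loading gene that did not, since class II genes share these boxes. Capitals mark a Y box, TGATTGG, and an X-box core, AGNAACNGA, both searched on both strands, and no marked box overlaps another. The H2-Aa window is chr17:34287774-34288073 on the minus strand, H2-Eb1 is chr17:34305617-34305916 on the plus strand, and H2-DMb1, which encodes a chain of H2-DM, is chr17:34152941-34153240 on the plus strand.
H2-Aa: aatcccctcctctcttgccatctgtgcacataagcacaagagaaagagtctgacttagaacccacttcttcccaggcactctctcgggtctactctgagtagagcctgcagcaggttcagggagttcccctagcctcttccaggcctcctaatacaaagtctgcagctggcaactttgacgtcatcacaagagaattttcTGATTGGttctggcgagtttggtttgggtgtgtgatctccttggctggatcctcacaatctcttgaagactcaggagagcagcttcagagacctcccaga
H2-Eb1: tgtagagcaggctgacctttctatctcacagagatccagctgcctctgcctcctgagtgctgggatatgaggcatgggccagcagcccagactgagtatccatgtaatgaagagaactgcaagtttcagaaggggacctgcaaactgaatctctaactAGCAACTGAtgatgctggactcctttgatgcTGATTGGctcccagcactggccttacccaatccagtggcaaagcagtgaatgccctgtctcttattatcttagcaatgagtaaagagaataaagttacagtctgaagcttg
H2-DMb1: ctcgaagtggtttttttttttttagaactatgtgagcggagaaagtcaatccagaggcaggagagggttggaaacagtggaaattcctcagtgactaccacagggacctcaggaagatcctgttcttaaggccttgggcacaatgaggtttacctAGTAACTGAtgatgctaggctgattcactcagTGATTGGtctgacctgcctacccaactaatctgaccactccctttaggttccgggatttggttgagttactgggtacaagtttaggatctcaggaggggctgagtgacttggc
The Y box starts at base 201, 190 and 188 of the H2-Aa, H2-Eb1 and H2-DMb1 windows, and the X-box core starts 31 bases before it in H2-Eb1 and 32 bases before it in H2-DMb1. Among 32851 promoter windows of 300 bases, 2568 (7.82%) hold the Y box, 1757 (5.35%) hold the X-box core, and 13 (0.0396%) hold the X-box core within 40 bases before the Y box on the same strand. H2-Eb1, H2-DMb1 and H2-Eb2 are among those 13. H2-Oa and H2-Ob, which encode the chains of H2-O, hold the Y box at base 206 and base 192. The H2-Oa window also holds the X-box core, at base 247 on the opposite strand. Neither letter pattern is in either H2-DMa window. A match is a description of the letters and not of a bound site, and a missing match does not show that a box is missing. H2-Ab1 and Ciita had no entry.

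The MHC class II signal of the cells was low in most and high in very few. The UMIs of the 4 genes ran from 4 to 642 with a median of 6.5 in the MHC class II microglia of hCD33M, from 4 to 35 with a median of 5 in hCD33m and from 4 to 366 with a median of 7 in Control. Of the 168 cells, 72 had 4 to 5 UMIs, 47 had 6 to 9, 42 had 10 to 99 and 7 had 100 or more. Those 7 cells, 5 from hCD33M, none from hCD33m and 2 from Control, held 2659 of the 4095 UMIs. Just inside the limit, 42 cells had 4 UMIs, and just outside it, 94 microglia had 3.

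**Figure D1:**
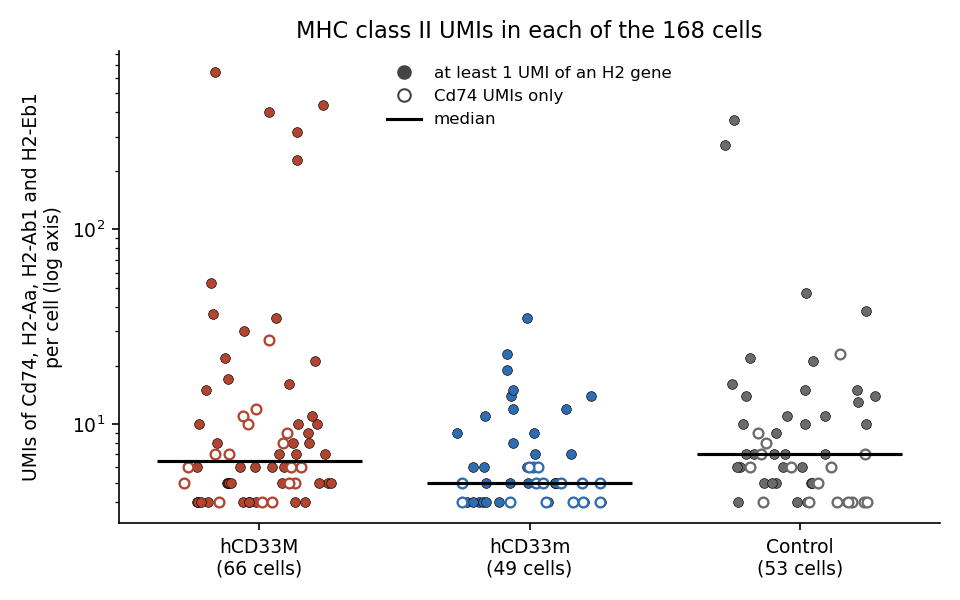
UMIs of Cd74, H2-Aa, H2-Ab1 and H2-Eb1 summed per cell (log axis) in the 66 hCD33M, 49 hCD33m and 53 Control MHC class II microglia; each point is a cell, open points carry Cd74 UMIs only, and the line is the median of 6.5, 5 and 7 UMIs. The 7 cells of 100 or more UMIs lie apart from the others, in hCD33M and Control.

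Cd74 was the gene that most of the cells carried. It had a UMI in 167 of 168 cells (99.4%), H2-Ab1 in 103 (61.3%), H2-Aa in 59 (35.1%) and H2-Eb1 in 45 (26.8%). In 48 cells Cd74 was the only one of the 4, and 25 cells had all 4 genes. Cd74 had 1293, 237 and 635 UMIs in the MHC class II microglia of hCD33M, hCD33m and Control, with a maximum of 289, 24 and 176 in a cell. H2-Eb1 had 452, 24 and 135 UMIs in the same cells.

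The make-up of the class II UMIs separated the 7 highest cells from the rest. In those 7 cells Cd74 gave 43.0% of the UMIs of the 4 genes, H2-Aa 18.1%, H2-Ab1 18.6% and H2-Eb1 20.3%. In the other 161 cells Cd74 gave 71.1% (95% exact interval 68.7 to 73.4, counting error only, as for all intervals here), H2-Aa 8.70%, H2-Ab1 15.3% and H2-Eb1 4.87%. The 146 other myeloid cells of the libraries, which had at least 5 UMIs of the macrophage genes and P2ry12 and Tmem119 under the limit, had 44.6% Cd74, 18.3% H2-Aa, 18.9% H2-Ab1 and 18.1% H2-Eb1. Microglia with 1 to 3 class II UMIs had 53.2% Cd74 and 35.3% H2-Ab1. The Cd74 share of the cells under 100 UMIs was 73.4%, 65.8% and 72.2% in hCD33M, hCD33m and Control.

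**Figure D2:**
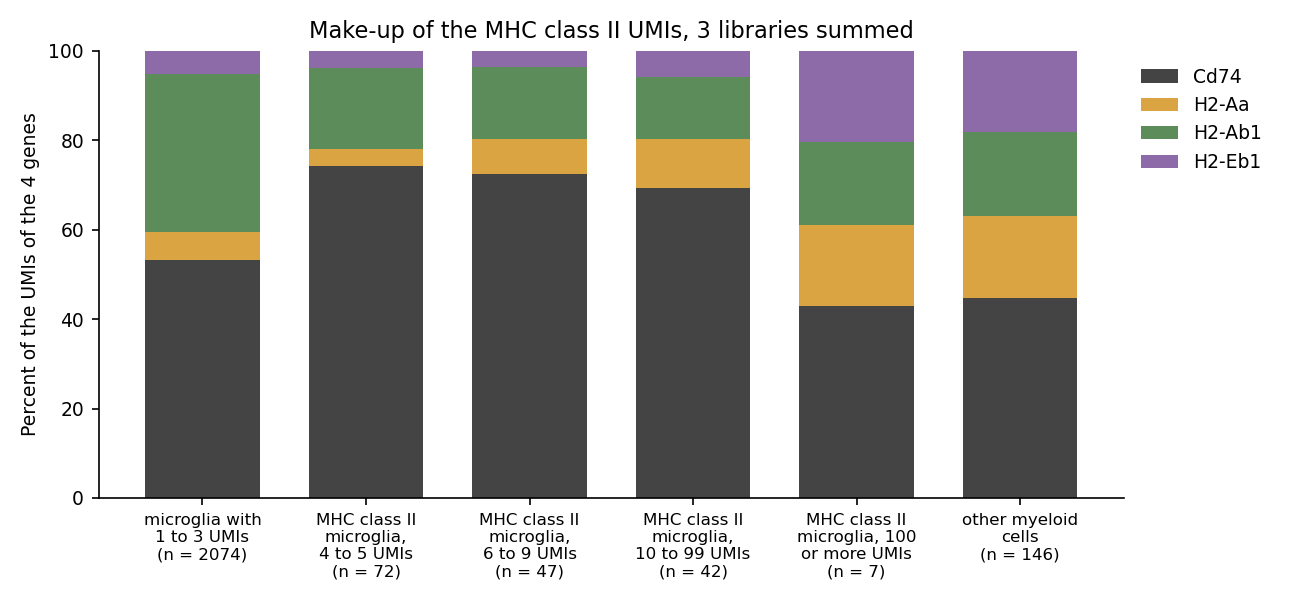
Percent of the UMIs of the 4 MHC class II genes that each gene gave, with the 3 libraries summed, in MHC class II microglia by their UMI count, in microglia with 1 to 3 UMIs and in other myeloid cells. The 7 cells of 100 or more UMIs have 43.0% Cd74, near the 44.6% of other myeloid cells, while the bars of MHC class II microglia with fewer UMIs have 69.3% to 74.2% Cd74.

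Low counts of these genes were also found outside the cells that were selected. With every barcode thinned to 500 UMIs, at least 1 class II UMI was found in 2.34% of microglia (2.09 to 2.62) and in 50.7% of other myeloid cells (42.3 to 59.0). It was found in 9.30% of kept barcodes outside the microglial gate that had under 1000 UMIs (4.90 to 15.7). Barcodes that met the macrophage limit were not taken out of this shallow group. Unthinned, the shares were 16.8% of microglia at a median of 5191.5 UMIs and 11.5% of those shallow barcodes at a median of 746 UMIs. The microglial share at equal depth was below that of the shallow barcodes. The shallow group held the 4 macrophage genes at 61.3, 531 and 325 CPM in hCD33M, hCD33m and Control. These were 2, 24 and 7 UMIs in 1, 6 and 2 barcodes. What part of the group is free RNA was not tested. H2-Ab1 gave 5 of the 66 class II UMIs of the shallow barcodes (7.58%), against 924 of 2620 (35.3%) in microglia with 1 to 3. Of those 66 UMIs, 42 were in 4 Control barcodes, so that the make-up of the shallow group rests on few barcodes. The source of counts of 1 to 3 UMIs was not tested, and they were not read as expression. The part of free RNA in the counts of 4 and more was not tested.

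Markers of other myeloid cells were counted in both classes. A set of 24 markers of border macrophages, monocytes or dendritic cells was drawn up after the values were seen, each found in under 1% of the 11070 microglia at 0 class II UMIs and in at least 5% of other myeloid cells. This choice fixes a low share in the depth-matched cells, which come from those 11070, so that the counts are a description. A UMI of any of them was found in 8 of 66, 8 of 49 and 13 of 53 MHC class II microglia of hCD33M, hCD33m and Control, against 13 of 254, 12 of 196 and 12 of 192 depth-matched microglia. Over the full lists, 18 border macrophage genes outside the rule summed to 1394 to 1552 CPM in the MHC class II microglia of the 3 libraries, against 1539 to 1633 CPM in depth-matched microglia, which express several of them. The 14 monocyte genes summed to 42.2 to 158 CPM against 29.1 to 35.1 CPM, and the 14 dendritic cell genes to 303 to 433 CPM against 333 to 369 CPM. Lyve1, Cd209f and Cd209g, markers of border macrophages, and Ly6c2 and Fn1, markers of monocytes, had 0 UMIs over all 168 cells, while Cd163 had 2, Clec10a 3 and Ccr2 79. Other markers of these lists were above the depth-matched microglia: S100a6 had 23 UMIs against 0, Napsa 13 against 0, Cd36 12 against 1 and Ace 9 against 0. Plac8 had 2 against 11. The part of such cells in the results below was not tested beyond leaving them out. Of the 4 macrophage genes in the rule, 29 of the 168 cells had a UMI, and 6 had 3 or 4, just inside the limit. Another 71 cells passed the other limits and had 5 or more, with a median of 120 class II UMIs. P2ry12 and Tmem119 made up a median of 0.413%, 0.368% and 0.336% of UMIs in the MHC class II microglia, against 0.492%, 0.506% and 0.481% in the depth-matched microglia, in hCD33M, hCD33m and Control, and 21 of the cells were under 0.20%.

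The 7 highest cells carried microglial markers and Ccr2 at once. The cell with 642 class II UMIs had 12658 UMIs in all, 0.30% of them P2ry12 and Tmem119, 21 of Ccr2, the chemokine receptor of inflammatory monocytes, and 31 of Cd209a, a lectin of monocyte-derived dendritic cells. Ccr2 was found in all 7 and had 60 of its 79 UMIs there. Class II genes made up 2.03% to 5.70% of their UMIs, and P2ry12 and Tmem119 0.171% to 0.437%. Whether these barcodes hold 1 cell or more was not tested, and no doublets were removed.

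Set against the depth-matched microglia, 171 of 8903 tested genes (1.92%) were higher and 41 (0.461%) lower in MHC class II microglia at an adjusted p under 0.05, the 10 genes of the rule left out. The test (edgeR, quasi-likelihood, Benjamini-Hochberg) compared UMIs summed per class within each of the 3 libraries. Each library is a different genotype, the fit leaves 2 residual degrees of freedom, and the p-values lean on a spread estimated over all genes. Without the 7 highest cells 140 genes were higher and 35 lower, of which 133 and 32 were the same genes. Of the calls given below, those lost without the 7 cells were Ccr2, Dab2, Btg2, P2ry13, Bag5, Maf1 and Cryl1. With the microglial gate raised to 0.30%, which leaves fewer cells, 33 were higher and 6 lower, and 33 and 4 were the same genes. Without the cells that carried any of the 24 other myeloid markers, in both classes, 134 were higher and 25 lower, and 116 and 19 were the same genes. Without the hCD33M library 51 were higher and 1 lower, and without Control 124 and 25. All values below are UMIs of a gene among 1000000 UMIs of the class (CPM), and fold changes are log2 of MHC class II over depth-matched microglia. The median log2 fold change over all genes tested was 0.00.

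Of the genes that load class II molecules, 2 of 4 tested were higher and none lower, with a median of 0.32. H2-DMa had 390, 283 and 276 CPM in the MHC class II microglia of hCD33M, hCD33m and Control, against 274, 229 and 210 CPM in depth-matched microglia. All 3 values lay above all 3 of the depth-matched cells (log2 0.46, SE 0.09, adjusted p = 3.47e-05). H2-Oa had 60.6, 75.0 and 81.4 CPM against 53.0, 55.5 and 32.4 CPM (log2 0.67, SE 0.18, adjusted p = 0.012), and the call rested on Control, without which it was 0.33 (adjusted p = 0.77). H2-DMa was no longer called without hCD33M, at 0.39 (adjusted p = 0.2). H2-DMb1, at 210, 169 and 192 CPM against 172, 168 and 181 CPM, and H2-Ob, at 23.3, 44.5 and 19.2 CPM against 35.1, 25.7 and 26.3 CPM, did not pass the test. H2-DMb1, whose window holds both letter patterns on the same strand, was at log2 0.18. H2-Oa, which holds them on opposite strands, was at 0.67, and H2-Ob, with the Y box alone, at -0.06. H2-DMa, with neither pattern in either window, was at 0.46. The differences between these genes were not tested.

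Of 11 regulators of class II transcription tested, with a median log2 of -0.02, 10 are given here and none of these passed. Rfx5, Rfxank and Rfxap, the subunits of RFX, had log2 values of 0.33, -0.22 and -0.05, and Nfya, Nfyb and Nfyc, the subunits of NF-Y, -0.04, 0.03 and -0.12. Creb1 was at 0.20, Irf1 at 0.23, Irf8 at -0.02 and Spi1, the myeloid lineage factor PU.1, at -0.15. Ciita was too low to be tested.

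Among antigen processing genes, 3 of 8 were higher and none lower, with a median of 0.05. The cathepsins Ctsb, Ctsz and Ctss, lysosomal proteases, rose by small amounts (log2 0.45, 0.27 and 0.19). Ctsb had 2027, 2226 and 2339 CPM in MHC class II microglia, against 1642, 1710 and 1599 CPM in depth-matched microglia, with no overlap (SE 0.05, adjusted p = 2.37e-13). Lgmn, an endopeptidase, and Cst3, a cathepsin inhibitor, had log2 values of -0.05 and -0.06.

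Of the genes of contact with T cells, 2 of 8 were higher and none lower, with a median of 0.28. Cd83, a surface protein that stabilises MHC class II and Cd86 on dendritic cells, had 103, 208 and 208 CPM against 66.2, 81.3 and 85.0 CPM (log2 1.16, SE 0.13, adjusted p = 1.31e-13). Cxcl16, a membrane-bound chemokine, rose by a log2 of 0.95. The costimulatory ligand Cd86 had a log2 of -0.12, Il15 of -0.10 and Cd274, which encodes PD-L1, of 0.98 with an SE of 0.39, and none of the 3 passed.

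MHC class I genes, which present peptides from inside the cell to CD8 T cells, were higher as well: 6 of 19 tested rose and none fell, with a median log2 of 0.24. H2-D1, a classical heavy chain, had 1230, 1228 and 1464 CPM in the MHC class II microglia of hCD33M, hCD33m and Control, against 631, 672 and 478 CPM in depth-matched microglia (log2 1.19, SE 0.06, adjusted p = 2.28e-45). H2-K1, the other classical chain of this strain, had 826, 876 and 926 CPM against 484, 547 and 381 CPM (log2 0.95). B2m, the light chain they share, had 2151, 2167 and 2099 CPM against 1607, 1542 and 1356 CPM (log2 0.55). Of the nonclassical chains, H2-Q7 had 57.5, 51.5 and 70.3 CPM against 8.33, 13.5 and 8.39 CPM (log2 2.64, SE 0.26, adjusted p = 9.63e-18), H2-Q6 rose by a log2 of 2.18 and H2-Q4 by 1.11. For all 6 genes the groups did not overlap, which is a description, since the share of all tested genes without overlap is not given here. In the fit that lets single genes keep a larger spread, described with Apoe below, H2-D1 was not called (adjusted p = 0.254). The H2 genes are near-identical in places, and the share of a count that belongs to each is uncertain. The transporter Tap1, at 0.54, and the chaperone Tapbp, at 0.33, did not pass. A Y box in reverse stands in the H2-D1, H2-K1, H2-Q6 and H2-Q7 windows and no X-box core does.

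Interferon genes were split. None of 10 targets of interferon gamma passed, with a median of 0.00: Igtp had a log2 of 0.26, Gbp7 of -0.06 and Gbp5 of -0.65, all GTPases of cell-autonomous defence, and Socs1, a feedback inhibitor, 0.49. Of the type I interferon response, 4 of 10 were higher and none lower, with a median of 0.46. Ifitm3, which blocks entry of viruses, had 127, 79.7 and 92.6 CPM against 28.5, 14.0 and 16.8 CPM, with no overlap (log2 2.36, SE 0.19, adjusted p = 8.14e-25). Ifi27l2a, an interferon-induced mitochondrial protein, had 162, 63.3 and 115 CPM against 29.4, 43.3 and 28.5 CPM (log2 1.86, SE 0.17), and in hCD33m alone the log2 difference was 0.56. In other myeloid cells Ifitm3 was at 1736 CPM and Ifi27l2a at 1078 CPM. The 15 type I genes summed to 4918, 3875 and 4255 CPM there in hCD33M, hCD33m and Control, against 926, 410 and 584 CPM in MHC class II microglia. The part of such cells in these rises was not tested. Bst2, the tether that holds budding virus at the membrane, rose by 0.49 and Ifi204, a DNA sensor, by 1.44, with values near 0 in hCD33m (0.05 and -0.18). Isg15 and Ifit3, standard members of the response, had log2 values of -0.20 and -0.34 and did not pass.

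Genes of the disease-associated state, which microglia take on beside amyloid and in degeneration, were the list with the most members called: 12 of 16 tested were higher and none lower, with a median of 1.57. Apoe, the lipid carrier, had 3569, 3221 and 1921 CPM in the MHC class II microglia of hCD33M, hCD33m and Control, against 420, 897 and 442 CPM in depth-matched microglia. The groups did not overlap (log2 2.39, SE 0.07, adjusted p = 1.6e-90), but in a fit that lets single genes keep a larger spread the call was lost (adjusted p = 0.352). With cells thinned to 2000 UMIs, Apoe was found in 50.8%, 63.8% and 49.1% of MHC class II microglia, against 20.4%, 50% and 33.3% of depth-matched microglia. Few cells held much of the Apoe signal. In hCD33M, hCD33m and Control, 45.4%, 40.5% and 52.0% of the Apoe UMIs of MHC class II microglia were in 3 cells of the library. Other myeloid cells had Apoe at 45646 CPM.

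Lyz2, the lysozyme of myeloid cells, had 1081, 982 and 972 CPM against 400, 419 and 342 CPM (log2 1.43, SE 0.06, adjusted p = 8.51e-57). Cst7, a cathepsin inhibitor that marks the state in microglia, had 126, 103 and 38.3 CPM against 30.7, 38.6 and 10.1 CPM (log2 1.82, adjusted p = 4.06e-16). It was at 3.04 CPM in other myeloid cells, where 1.37% of cells had a UMI. Lpl, a lipase, had 99.4, 46.9 and 84.6 CPM against 12.3, 28.1 and 13.4 CPM (log2 2.25), and Axl, a receptor for dying cells, 49.7, 35.1 and 38.3 CPM against 12.3, 13.5 and 6.15 CPM (log2 2.02). Lyz2 was at 20109 CPM, Axl at 153 CPM and Lpl at 49.7 CPM in other myeloid cells. With the microglial gate raised to 0.30%, Axl and Cst7 were still called, at 1.59 and 1.66, and Lpl was not, at 0.63 (adjusted p = 0.674). Itgax, which encodes CD11c, was found in 27 of 168 MHC class II microglia and had a log2 of 2.45, and Lgals3, galectin-3, was found in 18 and had a log2 of 4.20. Of its 52 UMIs 19 were in 1 hCD33M cell, and the log2 was 2.98 without hCD33M and 5.17 without hCD33m. Csf1, Vcam1, Cd63, Fth1 and Ccl6 rose by 1.88, 1.34, 0.65, 0.40 and 0.39, and with the gate at 0.30% Cd63 was the one of these 5 still called. Cd9 and Tyrobp, at 0.13 and 0.09, did not pass.

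**Figure D3:**
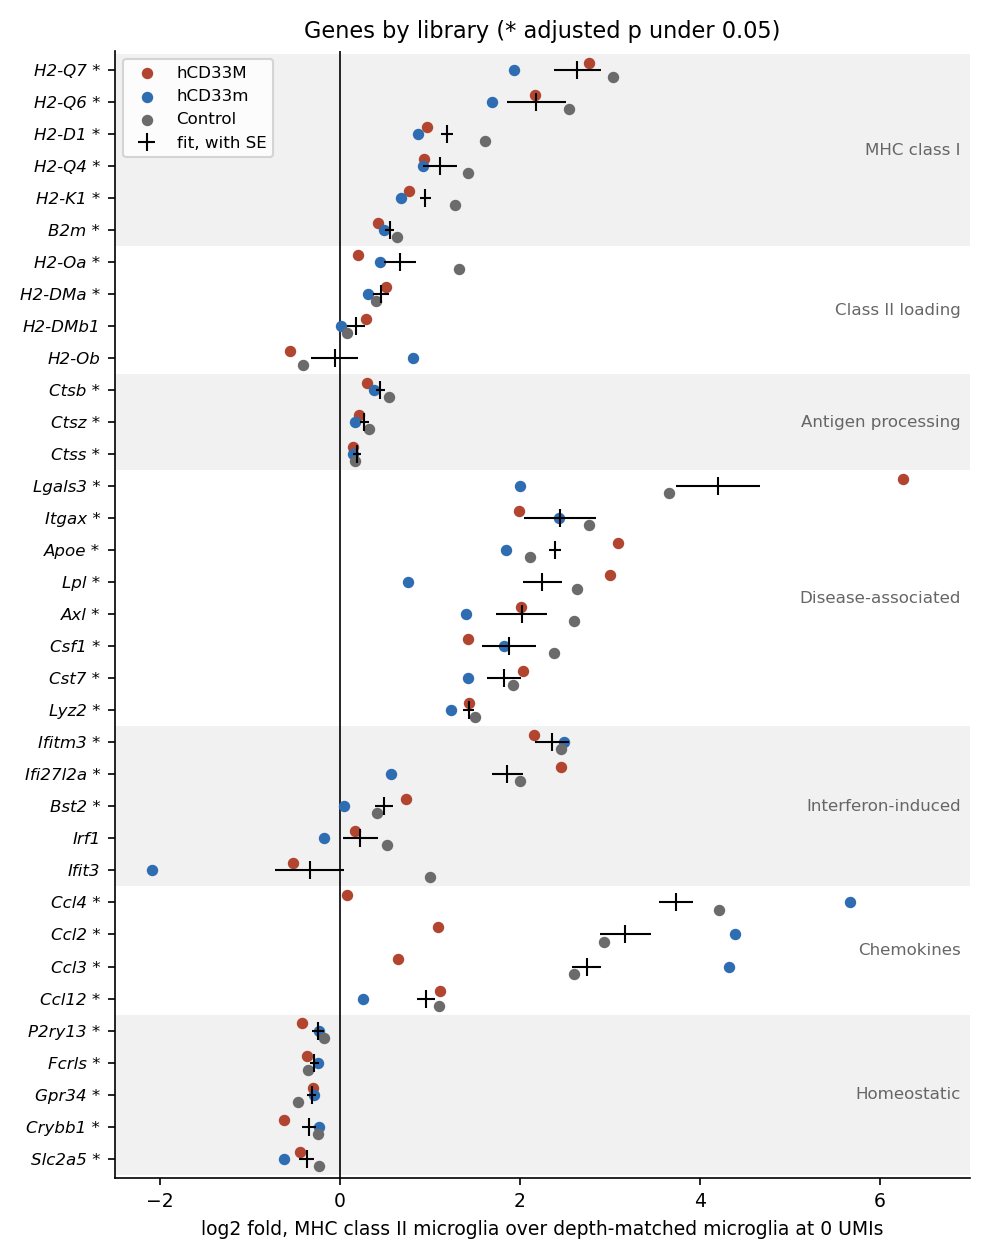
log2 fold change of MHC class II over depth-matched microglia in hCD33M, hCD33m and Control (points) and in the fit over the 3 libraries (bar, with its SE) for genes grouped by role; a star marks an adjusted p under 0.05. The MHC class I and disease-associated genes with a star lie right of 0 in every library, while Ccl4 spans 0.08 in hCD33M to 5.67 in hCD33m.

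Of 11 inflammatory genes tested, 5 were higher and none lower, with a median of 0.17, and the chemokines among them came from few cells. Ccl4, a chemokine of activated myeloid cells, had 34.2, 700 and 346 CPM in the MHC class II microglia of hCD33M, hCD33m and Control, against 32.9, 13.5 and 18.5 CPM in depth-matched microglia (log2 3.74, SE 0.19, adjusted p = 8e-48). Of the 538 Ccl4 UMIs, 203 were in 1 hCD33m cell and 191 in 1 Control cell. A Ccl4 UMI was found in 12.1%, 18.4% and 28.3% of MHC class II microglia, against 12.6%, 8.16% and 13% of depth-matched microglia, and in hCD33M both measures were close. Ccl3, a chemokine of the same family, had 49.7, 415 and 326 CPM against 32.0, 20.5 and 53.7 CPM (log2 2.74), and 172 of 204 UMIs in Control were in 1 cell. The calls of Ccl4 and Ccl3 were lost in the fit that lets single genes keep a larger spread (adjusted p = 0.629 and 0.592). Ccl2, which draws monocytes through Ccr2, was found in 17 cells and had a log2 of 3.17. With the microglial gate raised to 0.30%, none of the 3 was called, Ccl4 at 0.79 (adjusted p = 0.296), Ccl3 at 0.43 (adjusted p = 0.778) and Ccl2 at 1.5 (adjusted p = 0.106). Ccl12, its neighbour in the family, was more even, at 343, 157 and 326 CPM against 159, 132 and 152 CPM (log2 0.96, SE 0.10), and Tnf rose by 1.70.

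Of the 32 cells with a Ccl4 UMI, 14 were among the 48 with Cd74 as their sole class II transcript and 18 among the 120 with a UMI of an H2 class II gene. The 48 Cd74-only cells held 499 of the 538 Ccl4 UMIs, most of them in 3 cells of 83 to 203 UMIs each. Apoe was high in both sets, at 2233 CPM in the Cd74-only cells and 3088 CPM in the others, against 568 CPM in depth-matched microglia, and so were Lyz2, at 913 and 1050 CPM, and H2-D1, at 1260 and 1335 CPM.

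Levels were also read along the class II UMI count itself, from the depth-matched microglia at 0 through 1 to 3, 4 to 5, 6 to 9, 10 to 99 and 100 or more UMIs, with the libraries summed. Apoe was at 568, 735, 2183, 2524, 3715 and 6835 CPM in this order, and H2-D1 at 596, 766, 1105, 1266, 1619 and 1932 CPM. Of the 1083 Apoe UMIs at 6 to 9 class II UMIs, 557 were in 1 hCD33M cell, so that this Apoe level rests largely on that cell. Cybb, the catalytic chain of the phagocyte oxidase, was at 1.38, 6.36, 21.3, 46.6, 104 and 400 CPM. It had the largest fold change of all named genes (log2 5.45, adjusted p = 4.91e-31), with UMIs in 31 of the 168 cells and in 6 of 642 depth-matched cells, and is found in 89.7% of other myeloid cells. Cst7 rose to 127 CPM at 10 to 99 UMIs and was 66.6 CPM (21.6 to 155) in the 7 highest cells. Ccl4 had its maximum of 568 CPM at 4 to 5 UMIs. Ccr2 stayed between 6.78 and 20.4 CPM up to 99 UMIs and was 799 CPM (610 to 1029) in the 7 highest cells.

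**Figure D4:**
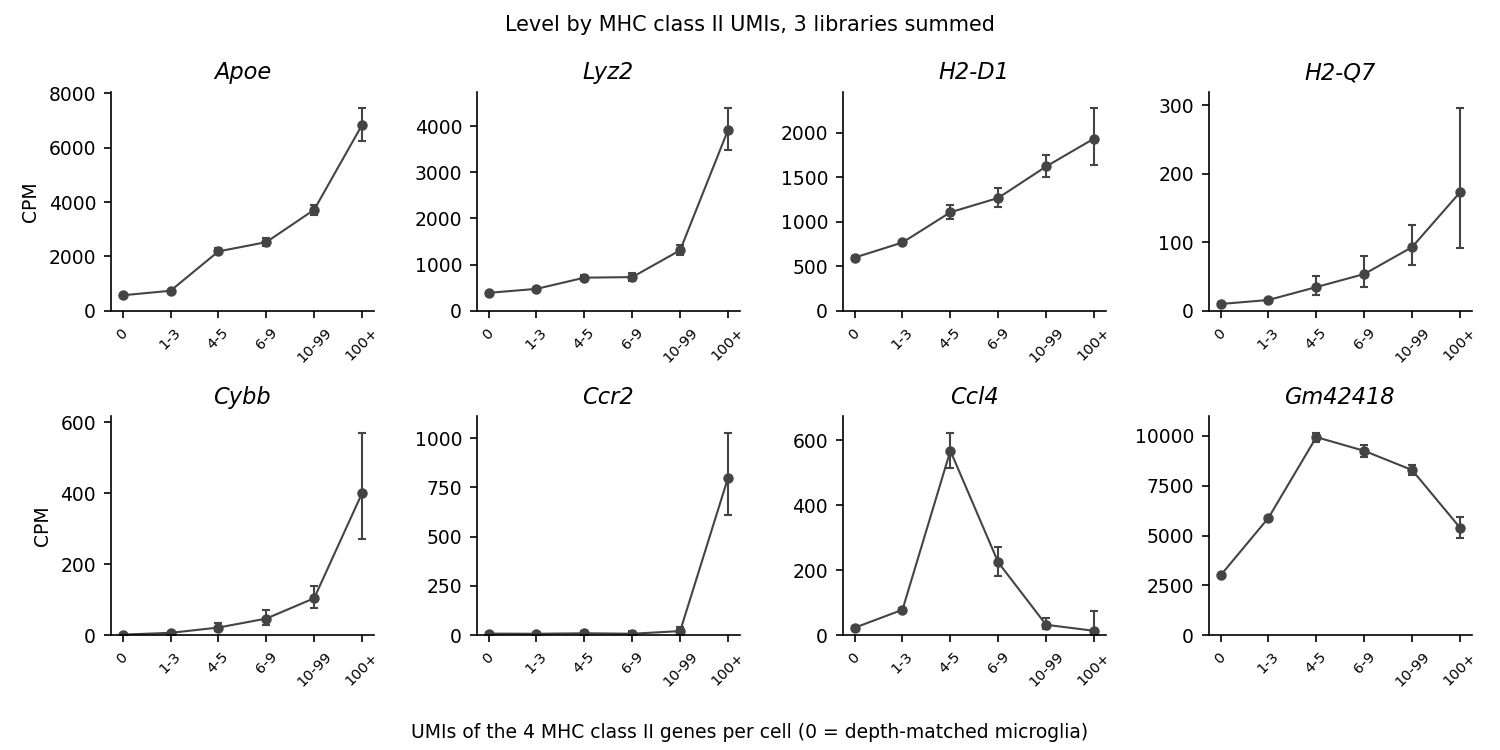
Level in CPM (points, with exact 95% Poisson intervals) against the number of class II UMIs per cell, with the 3 libraries summed, for Apoe, Lyz2, H2-D1, H2-Q7, Cybb, Ccr2, Ccl4 and Gm42418. Apoe and H2-D1 rise at each step, Ccr2 is at 20.4 CPM or less up to 99 UMIs and at 799 CPM in the 7 highest cells, and Ccl4 has its maximum of 568 CPM at 4 to 5 UMIs.

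Microglial identity genes were lower by small amounts. Of 20 homeostatic genes tested, 9 were lower and none higher, with a median log2 of -0.17, against 0.461% of all genes lower. Slc2a5, a fructose transporter, had 314, 237 and 351 CPM in the MHC class II microglia of hCD33M, hCD33m and Control, against 426, 364 and 414 CPM in depth-matched microglia (log2 -0.37, SE 0.08, adjusted p = 0.000589). Gpr34, a receptor for lysophosphatidylserine, had 1705, 1834 and 1707 CPM against 2104, 2246 and 2351 CPM, with no overlap (log2 -0.32, SE 0.05, adjusted p = 9.22e-07). Crybb1, Cd164, Fcrls, Golm1, P2ry13, Ltc4s and Selplg fell by 0.34 to 0.21. Csf1r, Cx3cr1, Sall1, Siglech and Trem2, which also define microglia, were at log2 -0.04, -0.12, -0.16, -0.15 and 0.05 and did not pass. Slc2a5 and Crybb1 were no longer called without hCD33M (adjusted p = 0.285 and 0.617). With the gate at 0.30%, which uses P2ry12 itself, Gpr34 was the one of the 9 still called, at -0.25, and the other 8 were at -0.27 to -0.10.

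The 10 genes with the largest called decreases were Khdrbs3, Bag5, Maf1, Msrb2, Mtfr1l, Cryl1, Rab6b, Hhex, Rtn1 and Pnp, at log2 -0.76 to -0.45. Pnp, purine nucleoside phosphorylase, had 312, 307 and 338 CPM against 453, 468 and 434 CPM, with no overlap (SE 0.08, adjusted p = 2.42e-06). Hhex, a homeobox factor, had 124, 101 and 139 CPM against 168, 165 and 202 CPM (adjusted p = 0.00216). Without hCD33M neither Pnp nor Hhex was called. Without the 7 highest cells Bag5 (adjusted p = 0.0662), Maf1 (0.0723) and Cryl1 (0.0523) were not called, and with the gate at 0.30% Pnp was the one of the 10 still called.

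Fxyd5, a regulator of the sodium pump, was the remaining gene among the 10 largest increases, at 59.0, 58.6 and 52.7 CPM against 5.70, 9.94 and 2.24 CPM (log2 3.32, SE 0.29, adjusted p = 7.65e-21), with UMIs in 34 of the 168 cells and in 53.4% of other myeloid cells. Ribosomal protein genes, counted after their values were seen, gave 48 of the 171 higher calls among 96 tested, at log2 0.17 to 0.52, and 6 of 13 mitochondrial genes were higher.

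Early response genes, which dissociation of tissue can induce, were near level: 2 of 17 were higher and 1 lower, with a median of -0.07. Atf3, a stress-induced repressor, rose by a log2 of 1.36, Egr1, an immediate-early transcription factor, by 0.30, and Btg2, an antiproliferative factor, fell by 0.21, while Fos, at 0.16, and Klf2, at 0.61, did not pass. Atf3 had a UMI in 17.9% of MHC class II microglia and in 15% of depth-matched microglia. With the gate at 0.30%, Atf3 was at 0.08 (adjusted p = 0.992), Egr1 at -0.02 and Btg2 at -0.22, none of them called, and without the 7 highest cells Btg2 was at -0.19 (adjusted p = 0.129). None of 6 cell cycle genes tested passed, with a median of 0.32.

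Lists of other cell types gave few calls, but few of their genes were high enough to be tested. These were 5 of 18 border macrophage, 2 of 14 monocyte and 3 of 14 dendritic cell genes. Most of the selective markers described above were not among them, and a lack of calls does not show that such transcripts are absent. Of border macrophage markers outside the rule 1 of 5 tested was higher, Dab2, an endocytic adaptor, at log2 1.23 (adjusted p = 0.00377). It was 0.26 (adjusted p = 0.943) where every cell with a UMI of the 4 macrophage genes was left out and 0.85 (adjusted p = 0.212) without the 7 highest cells. Of the monocyte markers 1 of 2 was higher, Ccr2, at 88.5, 16.4 and 23.9 CPM against 9.64, 6.43 and 6.15 CPM (log2 2.58, adjusted p = 1.7e-12), and it was 0.65 (adjusted p = 0.718) without the 7 highest cells. None of 3 dendritic cell (median log2 -0.22), 4 B cell (-0.21), 1 neutrophil (0.05), 2 endothelial and mural (-0.16), and 3 glial and neuronal (-0.03) markers tested was called, and no T or NK cell marker was at a level that could be tested.

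A sign of RNA quality moved with the class as well. Gm42418, a predicted noncoding gene at chr17:39846958-39848788 on which reads of ribosomal RNA collect, was higher by a log2 of 1.60. It exceeded 1% of UMIs in 22 of 168 MHC class II microglia (5, 8 and 9 in hCD33M, hCD33m and Control), against 20 of 642 depth-matched microglia (5, 10 and 5). The median mitochondrial share was 0.629% in those 22 cells and 2.26% in the other MHC class II microglia, all 22 had a UMI of an H2 class II gene, and none was among the 48 Cd74-only cells. Without such cells in either class 182 genes were higher and 28 lower, of which 150 and 23 were the same genes, and Apoe was at 2.34, H2-Q7 at 2.77 and Cst7 at 1.91. For Gm42418 itself the call was lost in the fit that lets single genes keep a larger spread (adjusted p = 0.506).

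Between genotypes there is 1 library each, and values are therefore given without a test. With cells thinned to 4000 UMIs, 33 of 3697 microglia (0.893%, 0.615 to 1.25) in hCD33M, 15 of 4046 (0.371%, 0.208 to 0.611) in hCD33m and 25 of 2659 (0.940%, 0.609 to 1.38) in Control had at least 4 class II UMIs. Cells with fewer UMIs, 1094, 1261 and 555, were left out. The intervals of hCD33M and Control overlapped nearly whole, while those of hCD33m and Control met at their ends. As expectations over the random draw, the shares were 0.869%, 0.439% and 1.01%. Unthinned they were 1.38%, 0.923% and 1.65%, and thinned to 6000 UMIs they were 2.17%, 1.56% and 1.57% in the draw, with expectations of 2.24%, 1.16% and 1.87%. With the microglial gate raised to 0.30% and 4000 UMIs kept, the shares were 0.727%, 0.213% and 0.552%. hCD33M was therefore below Control in some of these settings and above it in others, while hCD33m was below both in each, though by little against Control in the draw at 6000 UMIs.

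The level of the 4 genes over all microglia was 133 CPM in hCD33M (129 to 138), 44.4 CPM in hCD33m (42.0 to 46.8) and 94.0 CPM in Control (89.8 to 98.4). The log2 ratio over Control was 0.50 for hCD33M and -1.08 for hCD33m. The 7 highest cells decided the sign of the hCD33M ratio: without them the levels were 57.5, 44.4 and 61.5 CPM, and the ratios -0.10 (-0.21 to 0.01) and -0.47 (-0.58 to -0.36). With cells that had any UMI of the 4 macrophage genes left out, the ratios were -0.27 and -0.95. hCD33m was lower than Control in each of these settings, with the library, the genotype and the sex not to be told apart. Gene by gene, Cd74 was at 67.7, 25 and 51.5 CPM, H2-Ab1 at 29.5, 13.9 and 22.2 CPM, H2-Aa at 17.4, 2.91 and 11.2 CPM and H2-Eb1 at 18.6, 2.57 and 9.06 CPM in hCD33M, hCD33m and Control.

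**Figure D5:**
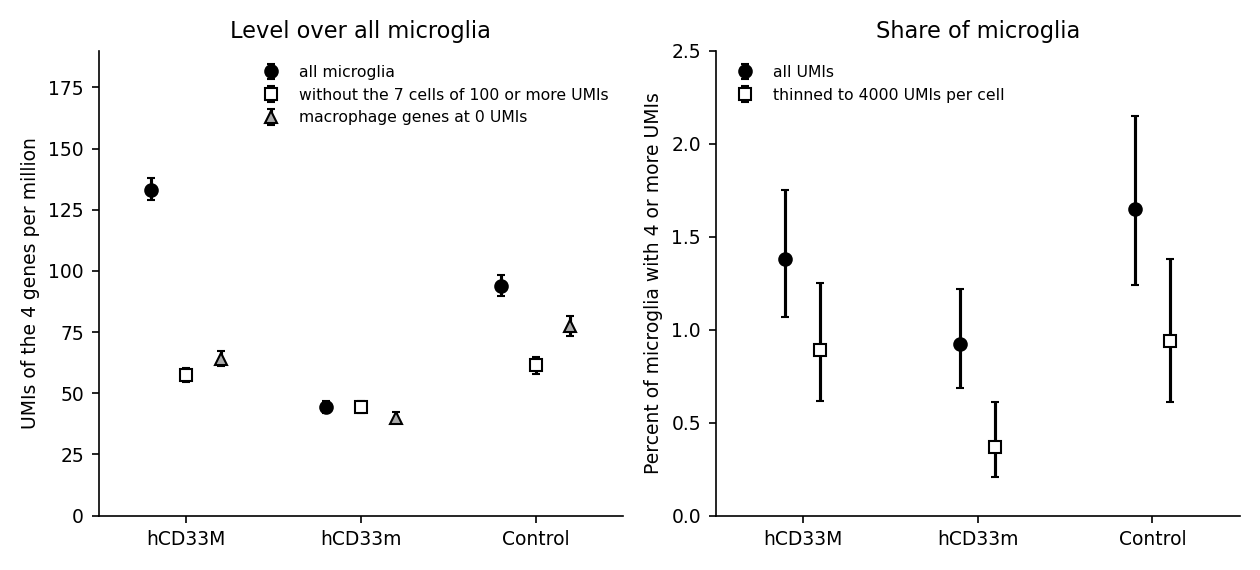
Left, UMIs of the 4 class II genes as CPM over all microglia in hCD33M, hCD33m and Control, with exact 95% Poisson intervals, for all microglia, without the 7 cells of 100 or more UMIs and with macrophage genes at 0 UMIs; right, percent of microglia with 4 or more class II UMIs, with exact 95% binomial intervals, unthinned and thinned to 4000 UMIs. hCD33M lies above Control in level over all microglia, at 133 and 94.0 CPM, and not without the 7 cells, at 57.5 and 61.5 CPM.

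Within the MHC class II microglia, a gene was counted as apart when its summed CPM differed at least 2-fold from Control and the higher library of the pair reached 50 CPM, with counts under 3 UMIs set to 3 in the ratio. For hCD33M this held for 26 of 3914 genes upward (0.664%) and 27 downward (0.69%), and for hCD33m for 60 of 3964 upward (1.51%) and 44 downward (1.11%). At a minimum of 100 CPM, 5 and 6 genes were left for hCD33M and 18 and 4 for hCD33m. No gene of the class II loading, antigen processing or MHC class I lists was apart in either genotype.

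Cst7 was apart in both, at 126, 103 and 38.3 CPM in hCD33M, hCD33m and Control. In the depth-matched microglia it was at 30.7, 38.6 and 10.1 CPM, and Control was the lowest library in both classes. Cx3cr1, whose locus carries Cre in the transgenic mice, was at 3139, 2713 and 5466 CPM, and in depth-matched microglia at 3504, 3148 and 5919 CPM. Control may differ from the other libraries in Cre as well as in the transgene, and this was not tested. Fos, an early response gene, was at 93.2, 220 and 84.6 CPM, and in depth-matched microglia at 67.9, 213 and 91.2 CPM. Dusp1 and Fosb were the other early response genes above Control in hCD33m, at a log2 of 2.14 and 1.06. These 2 genes, too, were high in hCD33m depth-matched microglia, at 65.5 and 126 CPM against 25.2 and 59.8 CPM in Control.

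Several other differences between libraries rested on single cells. Cxcl9, a chemokine for T cells, had 0 UMIs in hCD33M and hCD33m and 326 CPM in Control, and all 204 UMIs were in 1 cell. For C3, a complement component, and Cxcl13, a B cell chemokine, both highest in Control, 75.0% and 91.9% of the UMIs in MHC class II microglia were in 1 cell. The chemokines Ccl4 and Ccl3 were lower in hCD33M than in Control (log2 -3.34 and -2.71), with the Control UMIs mostly in 1 cell as given above. Ccr2 and Fgl2, a prothrombinase of myeloid cells, were higher in hCD33M (log2 1.89 and 2.18), where 5 of the 7 highest cells lie. Apoe had a log2 of 0.89 in hCD33M and 0.75 in hCD33m over Control, and was not apart at 2-fold. Xist, the transcript of the inactive X, was at 2284 CPM in hCD33m and 0 in both other libraries, as the label of sex has it.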

How the data were processed

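The deposited files are UMI counts per gene and barcode, 1 table per library, made by the authors with Cell Ranger on mm10, with barcodes of few genes and genes of few cells removed in Seurat. Which release of the gene annotation was used is not given here. The tables held 5100, 5707 and 3482 barcodes for hCD33M, hCD33m and Control, with 28387611, 32572995 and 21529542 UMIs. Barcodes with more than 200 and under 8000 genes and at most 10% mitochondrial UMIs were kept (5046, 5612 and 3412, at a median of 5078.5, 5137 and 5436.5 UMIs). The study's own kept numbers for this experiment are slightly lower. A second set of libraries of the study was not analysed here. The same barcode sequence stood in more than 1 library for 21 kept barcodes, and no 2 MHC class II microglia shared one. Doublets were not called. All members of the class and all gene lists were chosen with earlier results of these data known.

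UMIs were summed per library and class and tested with edgeR 4.0.16 in R 4.3.3 (glmQLFit and glmQLFTest, TMM factors, filterByExpr, library as a block, Benjamini-Hochberg, threshold 0.05). The pairing comes from the library, since both classes were taken from each. Of the 168 cells, 14 had fewer than 4 matches and 2 had none. No label says that libraries are separate cultures or preparations of a group. The p-values come from these 3 libraries, with a spread estimated mostly over all genes (217.7 prior against 2 residual degrees of freedom). They do not measure the spread of a single gene between libraries alone. Intervals at 95% are exact (Clopper-Pearson, Poisson, or conditional binomial for ratios) and cover counting error only. The genes named were the 10 largest increases and decreases among called genes with at least 50 CPM in the mean of either class and the same direction in all 3 libraries, all class II loading and regulator genes (a few genes are not reported here), and the 2 highest and 2 lowest of every other list, and other genes of a list were added after their values were seen. CPM is the summed UMI count of a gene over all UMIs of the class. DESeq2 1.42.0 and a robust quasi-likelihood fit, which lets single genes keep a larger spread, were alternatives. Python 3.11.15 with scipy 1.17.1 gave the intervals. Promoters were RefSeq, GRCm38.p6, and the position of Gm42418 is from the GENCODE annotation of that build.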

Additional observations from a re-analysis of the deposited data

How the results depend on the processing

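The count of genes higher in MHC class II microglia, 171, was 52 with DESeq2 (which gave an adjusted p to 616 genes), 58 with no replicate block, 86 with 1 matched cell each, 62 with cells thinned to 2000 UMIs, 276 with at least 2 and 88 with at least 8 class II UMIs, 33 with the gate at 0.30%, and 51 to 154 with 1 library left out. The count of lower genes, 41, was 92 by library totals only (beside 143 higher), 5 with DESeq2, 67 with no filter, 2 with no replicate block, 12 with 1 matched cell, 120 with no depth matching, 5 thinned, 134 with at least 2 and 2 with at least 8 UMIs, 6 at 0.30%, 17 with macrophage genes at 0, 25 without cells with a UMI of another myeloid marker and 1 to 34 with 1 library left out. The block is the library, which both classes share. Fewer cells or genes entered several of these fits, and the cause was otherwise not tested. Among named genes 3 changed sign: Mtfr1l was 0.29 when thinned, and with at least 2 UMIs Isg15 was 0.69 and Ifit3 0.95.

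The share of microglia in hCD33M, hCD33m and Control was 2.84%, 2.47% and 3.05% with at least 2 UMIs, 0.325%, 0.0741% and 0.414% with at least 8, 1.38%, 0.923% and 1.65% unthinned, 0.443%, 0.123% and 0.593% at 2000 UMIs, 2.17%, 1.56% and 1.57% at 6000 (expectations 2.24%, 1.16% and 1.87%), and 0.727%, 0.213% and 0.552% with the gate at 0.30%, where hCD33M lay above Control. The log2 level of hCD33M over Control, 0.50, was 0.42 without the deepest 5% of microglia, 0.73 with the gate at 0.30%, 0.66 without cells with another myeloid marker, 0.76 without cells over 1% Gm42418, and turned to -0.27 with macrophage genes at 0 and to -0.10 without the cells of 100 or more UMIs. For hCD33m, -1.08, it was -0.76, -0.88, -0.39, -0.90, -0.95 and -0.47 under the same settings. Genes apart numbered, for hCD33M higher and lower and hCD33m higher and lower, 229, 168, 300 and 279 at 20 CPM, 5, 6, 18 and 4 at 100 CPM, 206, 164, 328 and 245 at 1.5-fold, 180, 173, 206 and 185 without the deepest 5%, and 65, 46, 118 and 104 without cells with another myeloid marker, and hCD33M higher was 43 without cells over 1% Gm42418. The settings on cells of 100 or more UMIs, other myeloid markers, Gm42418 and the robust fit were chosen after seeing the data. Leaving out every cell with a UMI of the full border macrophage, dendritic, B, T and NK lists left 60 of 13312 microglia and none of the 168, and was not run.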
